A study of Homo sapiens with 8 samples.

Results

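The machinery that starts and copies DNA is described here through 44 genes, chosen by name from the 22808 gene symbols of the count table. All 44 were in the table and all 44 passed the filter on low counts. RD18, a human fusion-negative rhabdomyosarcoma line (a muscle-lineage tumour without a PAX-FOXO1 fusion), received the transfection reagent lipofectamine alone as vehicle, or miR-449a together with miR-340-5p. RNA was taken after 60 h, with 4 libraries in each group and no further treatment in either. The vehicle cells received no control RNA, so the microRNA pair and the presence of transfected RNA cannot be told apart. Whether the 4 libraries of a group are separate cultures is not labelled, and p-values here cover only sample-to-sample spread, possibly of technical origin.

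Chromosomes are copied from many origins. The origin recognition complex (ORC1 to ORC6) marks each origin, and CDC6 and CDT1 then load the ring helicase MCM2-7 onto it in G1, a step called licensing, which geminin (GMNN) blocks after S phase has begun. In S phase CDC45 and the GINS complex turn the ring into an active helicase, primase and polymerase alpha lay down primers, the clamp loader RFC places the clamp PCNA, polymerases epsilon and delta extend the strands, FEN1 and LIG1 join the lagging-strand pieces, RPA covers exposed single strands, and CAF-1 (CHAF1A and CHAF1B) places histones behind the fork. Many of these genes are textbook targets of the E2F transcription factors, which drive entry into S phase. In a bulk sample, fewer cells in S phase and less RNA per cell cannot be told apart.

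Library totals ran from 2567737 to 5569342 counts, and the correlation of log2 CPM (CPM, counts scaled to a common library size) was at least 0.972 within groups and at most 0.859 between them. Of the 5 muscle-lineage markers checked (MYOD1, MYOG, DES, CHRNA1 and ACTC1), all were present in vehicle cells, at 10.4 to 814 CPM. The leukocyte, endothelial and epithelial markers PTPRC, CD3E, PECAM1, VWF, EPCAM and CDH1 averaged at most 1.49 CPM in either group, with VWF and CDH1 at 0 in all vehicle libraries. KRT18, also found outside epithelia, had 39.7 CPM in vehicle cells and 67.3 CPM after treatment. The muscle-lineage markers all fell, with a summed level of 1561 to 1724 CPM in vehicle libraries and 825 to 849 CPM in treated ones. The 3 fibroblast markers LUM, DCN and PDGFRB summed to 8.54 to 15.8 CPM in vehicle and 1.95 to 2.73 CPM in treated libraries, but did not move alike. Only LUM was tested, and it fell, from a mean of 7.55 CPM in vehicle to 0.300 CPM in treated cells. DCN and PDGFRB were too low to be tested and their groups overlapped. DCN was highest in vehicle replicate 2 (7.51 CPM). PDGFRB had a mean of 0.875 CPM in vehicle and a higher one, 1.43 CPM, in treated cells. The part of these shifts in the results below was not tested.

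The transfected microRNAs are shown first, since many direct targets carry a match to their seed (bases 2 to 8, in capitals) in the 3′ UTR. Sequences are from RefSeq (GRCh38.p14).
miR-449a: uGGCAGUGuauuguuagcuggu
miR-340-5p: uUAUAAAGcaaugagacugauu
A messenger RNA that pairs with the miR-449a seed holds the word CACTGCC, and that of miR-340-5p pairs with CTTTATA. Searched in 1 3′ UTR per gene, its longest in GENCODE 29, CACTGCC was found in 2 of the 44 members (4.55%), GINS3 and GINS4, against 17.9% of 10501 tested genes with a 3′ UTR. CTTTATA was found in 6 members (13.6%), ORC2, MCM4, GINS1, MCM10, RFC1 and RFC5, against 19.9% of tested genes. The members' 3′ UTRs were shorter, with a median of 872 bases against 1469 bases. The sites that can be set beside the results are printed below, with the seed match in capitals and the bases before it.
GINS3, miR-449a: ttcctaaataagaatCACTGCCa
GINS1, miR-340-5p: tgttataattttaagCTTTATAc
MCM10, miR-340-5p: aggagtatacttctaCTTTATAg
RFC5, miR-340-5p: atttgtgttagtgttCTTTATAa
RFC1, miR-340-5p: atttatcctaatggcCTTTATAg
ORC2, miR-340-5p: atttggatagaatcaCTTTATAa
On GRCh38 the 7-base matches lie on the plus strand of chromosome 16 at 58405009 to 58405015 (GINS3), of chromosome 20 at 25446988 to 25446994 (GINS1), of chromosome 10 at 13210724 to 13210730 (MCM10) and of chromosome 12 at 118032076 to 118032082 (RFC5). They lie on the minus strand of chromosome 4 at 39288375 to 39288381 (RFC1) and of chromosome 2 at 200908975 to 200908981 (ORC2). The carriers of the miR-340-5p word included the member with the largest fall, MCM10, and 2 with small ones, ORC2 and RFC1. Neither word was found in 36 members (81.8%), against 66.6% of the 10501 tested genes with a 3′ UTR. These 36 had a median log2 fold change of -2.08, and the 8 members with either word had -2.06. Over the tested genes the medians were 0.050 with neither and -0.032 with either. Of the 36 members with neither word 34 fell, as did 2237 of the 6997 tested genes with neither. A word match is a description, and binding at these sites was not tested. Shorter matches and sites outside the 3′ UTR were not searched, so a gene with neither word is not shown to lack direct binding.

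Nearly the whole replication machinery was lower in treated cells. Of the 44 genes, 42 fell, none rose and 2 (ORC4 and ORC5) did not pass (edgeR quasi-likelihood test, adjusted p under 0.05), where 34.0% of the 12366 genes tested fell, 33.4% rose and 67.3% passed in either direction. At least 2-fold falls were found for 36 members (13.1% of all tested genes) and at least 4-fold falls for 23 (3.49% of all tested genes). The median log2 fold change was -2.08 over the members and -0.00067 over all tested genes. In 40 members every treated library lay below every vehicle library, against 29.7% of tested genes. No member had every treated library above every vehicle library, against 29.2%. Together the 44 genes took 0.302%, 0.280%, 0.296% and 0.325% of each vehicle library's counts. The treated libraries had shares of 0.0986%, 0.0940%, 0.0947% and 0.0926%. That genes of DNA replication were lower was known from earlier work on these data when the list was made.

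**Figure D1:**
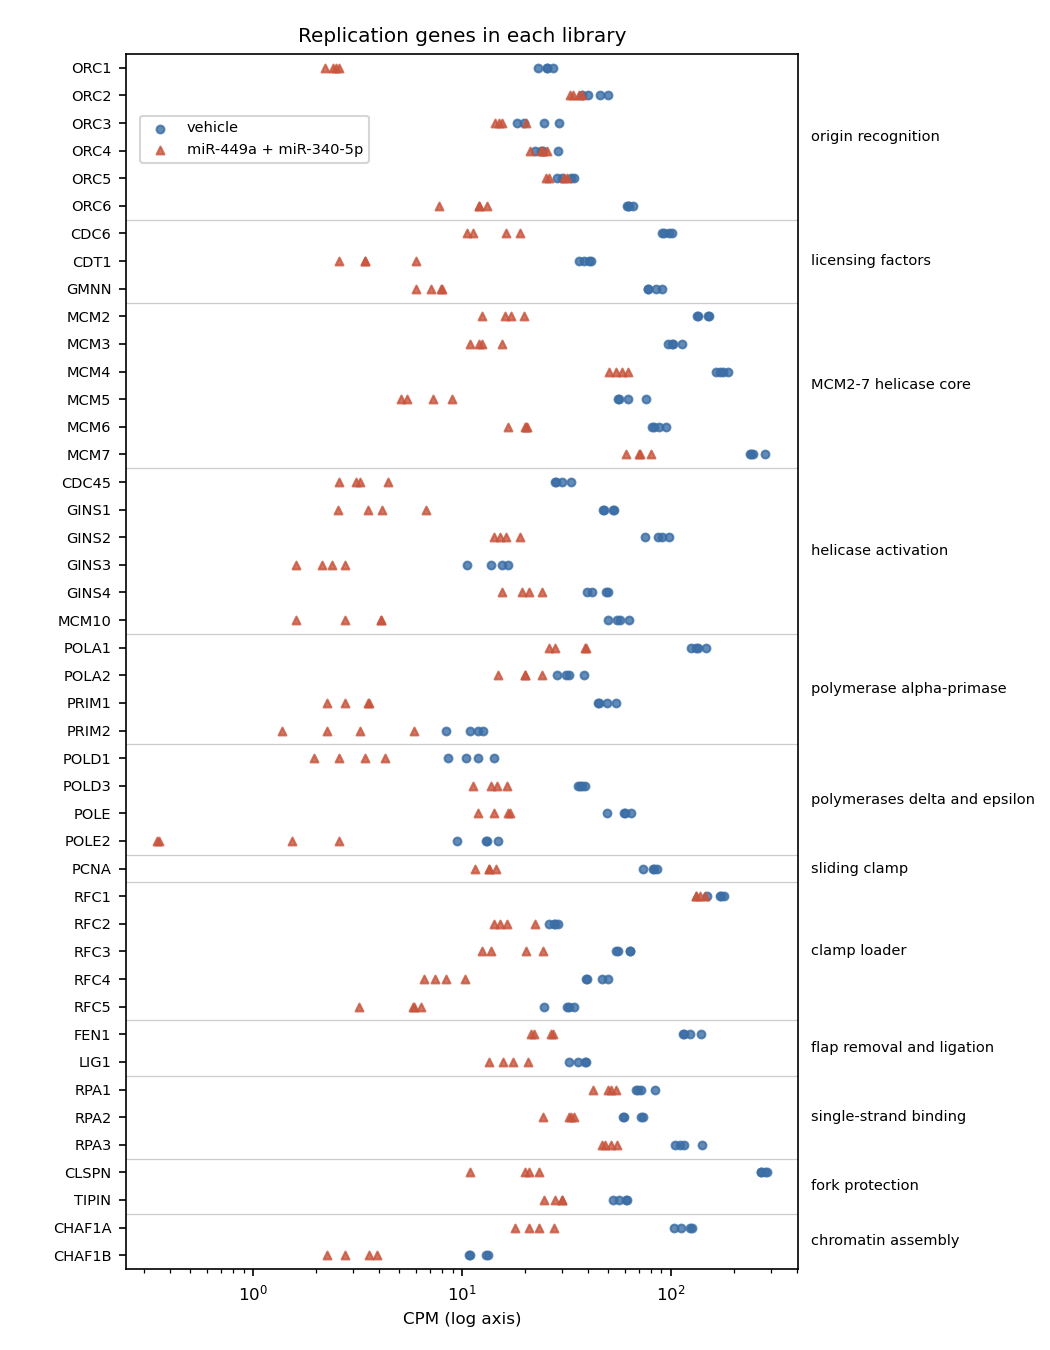
CPM of each of the 44 replication genes in every library (log axis), grouped by role, with circles for the 4 vehicle libraries and triangles for the 4 treated libraries. The symbols separate for 40 genes and overlap for ORC2, ORC3, ORC4 and ORC5.

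The falls differed widely by role and between partners of the same complex. By median log2 fold change the licensing factors (-3.25) and helicase activation factors (-2.87) were lowest, followed by PCNA (-2.60), MCM2-7 (-2.57), CLSPN and TIPIN (-2.42), chromatin assembly (-2.13), polymerases delta and epsilon (-1.91), polymerase alpha-primase (-1.84), the clamp loader (-1.76), FEN1 and LIG1 (-1.74), RPA (-1.05) and the origin recognition complex (-0.40). Groups hold 1 to 6 genes each and their order was not tested. Within groups, the range was wide: from -3.37 to -0.06 in the origin recognition complex and from -4.04 to -1.15 in helicase activation.

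**Figure D2:**
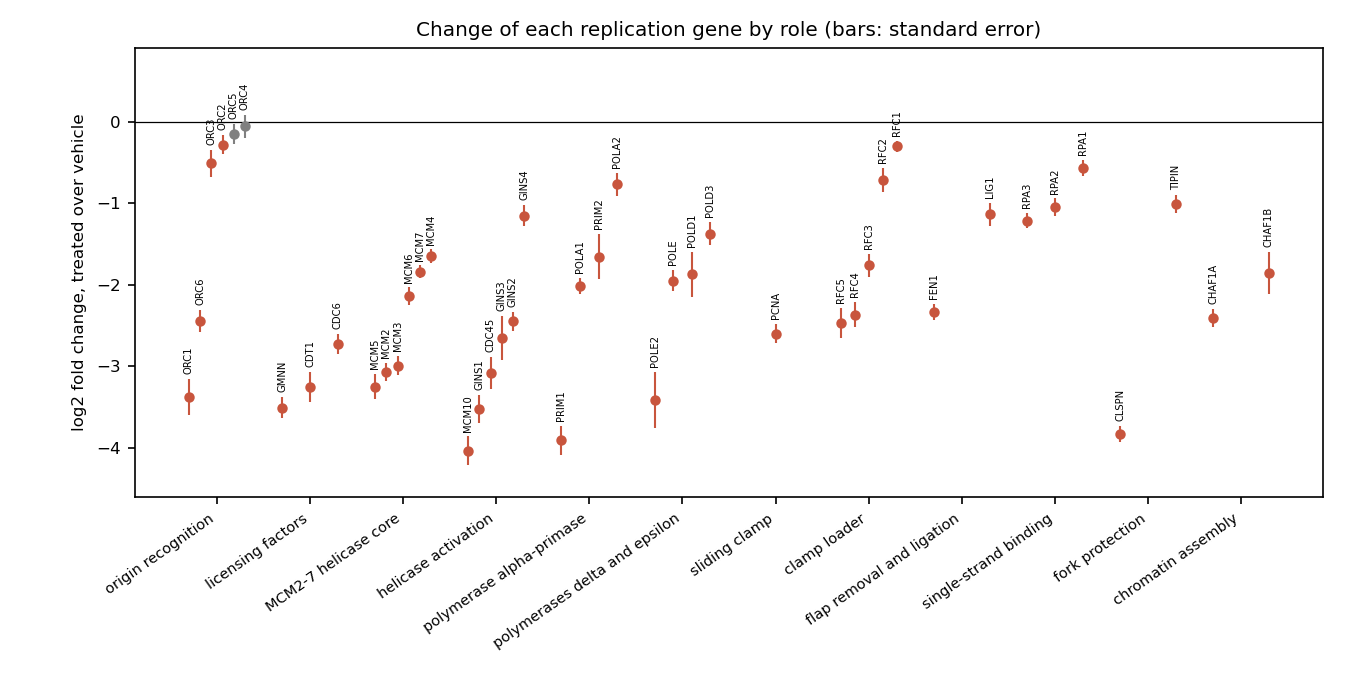
Log2 fold change of each gene (treated over vehicle), with its standard error as bars, by role. Grey points are ORC4 and ORC5, which did not pass, and all other points lie below 0.

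In the origin recognition complex 2 subunits fell strongly and 4 changed little or did not pass. ORC1, the ATPase subunit whose protein is destroyed and remade in each cycle, lies on chromosome 1 (52372829 to 52404459, GRCh38). It measured 27.2, 23.0, 25.4 and 25.4 CPM in the 4 vehicle libraries and 2.49, 2.22, 2.41 and 2.57 CPM in the treated libraries. Every treated value lay far below every vehicle value, with 7 to 14 counts in each treated library, and the log2 fold change was -3.37 (SE 0.22, adjusted p = 1.04e-20). ORC6, the small subunit that also serves cytokinesis, fell from 65.7, 63.2, 61.8 and 62.0 to 12.1, 13.1, 12.1 and 7.72 CPM (5.44-fold, adjusted p = 1.64e-24). ORC2, part of the stable core of the complex, measured 49.8, 39.9, 37.5 and 46.0 CPM without the microRNAs and 34.1, 36.3, 32.7 and 37.7 CPM in treated cells. The 2 groups of ORC2 values overlapped, and its 1.21-fold fall (adjusted p = 0.0275) was not called when libraries were scaled by size alone (adjusted p = 0.284), with upper-quartile scaling (0.0715), with no filter (0.0605) or with DESeq2 (0.0912). It was also lost without vehicle replicate 1 (0.0961) or 4 (0.0980) or treated replicate 1 (0.0713) or 3 (0.0608). ORC3, another core subunit, fell 1.43-fold from 23.0 ± 4.93 to 16.3 ± 2.70 CPM (SD, n = 4, adjusted p = 0.00469), a call lost without vehicle replicate 2 (0.0607). ORC4 had 24.8 ± 2.73 CPM in vehicle libraries, then 23.8 ± 1.80 CPM in treated cells (log2 fold change -0.057, SE 0.14, adjusted p = 0.728). ORC5 had 31.6 ± 2.67 and 28.4 ± 3.29 CPM (log2 fold change -0.15, SE 0.13, adjusted p = 0.296).

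The 3 licensing genes all fell by more than 6-fold (1.79 or lower as percentiles of the log2 fold changes of all tested genes). CDC6, the ATPase that helps load the helicase, measured 101, 97.6, 92.3 and 90.4 CPM across vehicle libraries against 19.0, 10.6, 16.2 and 11.3 CPM in treated cells, a 6.62-fold fall. CDT1, its loading partner, measured 38.5, 41.4, 36.2 and 40.7 CPM against 6.04, 3.41, 3.44 and 2.57 CPM, a 9.54-fold fall. GMNN, the inhibitor of CDT1, fell as well: 90.4, 77.4, 77.3 and 85.2 CPM became 6.04, 8.02, 7.92 and 7.08 CPM (11.4-fold, log2 fold change -3.51, SE 0.13, adjusted p = 9.84e-32). The lowest vehicle library was above the highest treated library for each of the 3, against 29.7% of all tested genes. The balance of the activator and the inhibitor of licensing did not pass a test of difference: the log2 ratio of CDT1 to GMNN counts was -1.07 ± 0.134 in vehicle and -0.94 ± 0.638 in treated libraries, a difference of 0.13 whose sign turned without treated replicate 1 (-0.19).

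All 6 subunits of the MCM2-7 ring fell, by 3.13-fold to 9.51-fold. MCM2, on chromosome 3 (127598223 to 127622436), measured 150.2, 133, 135 and 153 CPM without the microRNAs and 19.9, 17.23, 12.4 and 16.1 CPM in treated cells (8.40-fold, adjusted p = 6.87e-34). MCM5 measured 62.3, 75.6, 56.4 and 56.0 against 7.28, 5.12, 8.95 and 5.47 CPM, a 9.51-fold fall. MCM3 fell 7.96-fold from 103 ± 7.23 to 12.7 ± 1.92 CPM and MCM6 fell 4.41-fold from 86.8 ± 6.11 to 19.3 ± 1.86 CPM. The smallest falls were those of MCM4, from 178, 171, 164 and 188 to 54.7, 50.3, 58.5 and 62.4 CPM (3.13-fold), and MCM7, from 238, 241, 247 and 283 to 70.8, 70.5, 80.6 and 61.2 CPM (3.58-fold). The ring holds 1 copy of each subunit, so the make-up of its messenger pool was computed from CPM per kb of transcript. MCM4 and MCM7 fell least, so a larger joint share of the pool follows from picking these subunits. MCM4 and MCM7 together made 52.3% ± 1.80 of the 6 subunits' pool in vehicle and 70.1% ± 2.86 in treated cells (SD, n = 4), with 50.8% to 54.9% in the vehicle libraries and 66.9% to 73.8% in the treated ones. MCM2 went from 16.7% ± 0.752 to 8.73% ± 1.70 and MCM5 from 7.52% ± 1.25 to 3.62% ± 0.799 of that pool, while MCM6 stood at 9.85% ± 0.795 and 9.97% ± 1.26.

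**Figure D3:**
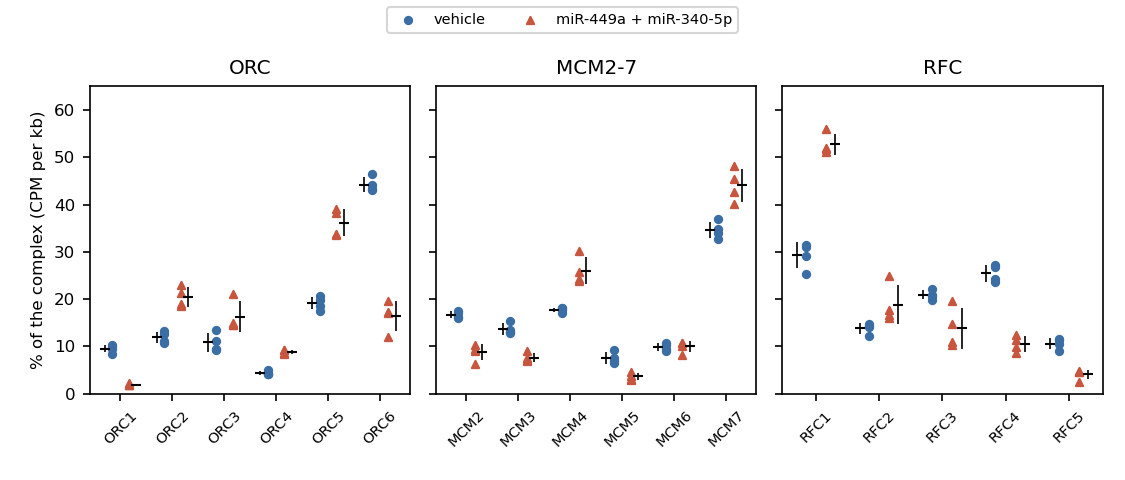
Share of each subunit in the summed CPM per kb of its complex, per library, with the mean and SD beside the points, for ORC, MCM2-7 and RFC. ORC1 and ORC6 take a smaller share in treated cells, and MCM4, MCM7 and RFC1 a larger one.

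The factors that activate the helicase included the largest fall of all 44 genes. MCM10, which acts as the helicase starts to move, lies on chromosome 10 (13161554 to 13211104). It measured 56.9, 50.2, 55.0 and 62.8 CPM in vehicle libraries, then 4.08, 4.09, 2.75 and 1.61 CPM in treated cells, a 16.4-fold fall (log2 fold change -4.04, SE 0.18, adjusted p = 5.72e-29). Its treated values rest on 23, 24, 8 and 5 counts. The falls of PRIM1 (log2 fold change -3.91, SE 0.18) and CLSPN (-3.83, SE 0.099) were close to that of MCM10. GINS1 fell 11.5-fold from 53.1, 52.6, 48.1 and 47.5 to 6.75, 2.56, 4.13 and 3.54 CPM. Its partners in the 4-part GINS complex fell less: GINS3 by 6.29-fold (14.1 ± 2.65 to 2.22 ± 0.481 CPM) and GINS2 by 5.44-fold (87.4 ± 9.47 to 16.1 ± 2.07 CPM). GINS4 fell by 2.22-fold, from 41.8, 39.6, 48.7 and 49.7 CPM to 24.1, 19.4, 21.0 and 15.4 CPM. CDC45, the third part of the active helicase beside the ring and GINS, fell 8.47-fold from 29.7 ± 2.44 to 3.34 ± 0.787 CPM. In all 6 genes every treated library lay below every vehicle library, against 29.7% of all tested genes.

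Primase and the replicative polymerases fell unevenly. PRIM1, the catalytic subunit of primase on chromosome 12 (56731596 to 56752373), measured 54.4, 45.3, 49.6 and 44.7 CPM across vehicle libraries against 3.55, 3.58, 2.75 and 2.25 CPM in treated cells, a 15.02-fold fall (adjusted p = 5.93e-28). PRIM2, the regulatory subunit of primase, measured 8.37, 10.9, 11.9 and 12.6 CPM against 5.86, 3.24, 1.38 and 2.25 CPM (3.15-fold), with as few as 4 counts in a treated library. POLA1, the catalytic subunit of polymerase alpha, fell 4.04-fold (134 ± 9.20 to 33.0 ± 6.996 CPM), and its accessory subunit POLA2 1.71-fold, from 28.4, 31.3, 32.3 and 38.4 to 14.9, 19.96, 24.1 and 19.96 CPM. For the leading-strand polymerase epsilon, the catalytic gene POLE fell 3.87-fold (58.5 ± 6.38 to 14.9 ± 2.36 CPM). Its accessory gene POLE2 measured 12.97, 13.2, 9.43 and 14.8 CPM without the microRNAs and 0.355, 1.54, 0.344 and 2.57 CPM in treated cells. These treated POLE2 values rest on 2, 9, 1 and 8 counts, so its 10.7-fold fall is known only roughly (SE 0.34 on the log2 scale). For the lagging-strand polymerase delta, the catalytic gene POLD1 fell 3.66-fold (11.3 ± 2.40 to 3.06 ± 1.01 CPM) and the accessory gene POLD3 2.59-fold (37.2 ± 1.24 to 14.04 ± 2.14 CPM).

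The clamp fell more than the large subunit of its loader. PCNA, the ring that holds polymerases on DNA, lies on chromosome 20 (5114953 to 5126626). It measured 85.8, 73.8, 81.7 and 82.9 CPM in vehicle libraries, then 13.5, 13.5, 14.5 and 11.6 CPM in treated cells, a 6.07-fold fall (adjusted p = 4.22e-28). Of the loader, RFC5 fell 5.55-fold (30.8 ± 4.26 to 5.32 ± 1.42 CPM), RFC4 5.16-fold (46.9, 39.6, 39.1 and 49.7 to 10.3, 8.36, 6.54 and 7.40 CPM), RFC3 3.39-fold (59.6 ± 4.89 to 17.7 ± 5.63 CPM) and RFC2 1.65-fold (27.6 ± 1.14 to 17.01 ± 3.68 CPM). RFC2 to RFC5 are the small subunits, which also serve in the alternative loaders. RFC1, the large subunit found only in the replication loader, measured 149, 172, 174 and 180.4 CPM across vehicle libraries against 146, 138, 133 and 132 CPM in treated cells, a 1.23-fold fall (adjusted p = 0.000154). The groups of RFC1 values nearly touched, at 149 and 146 CPM. RFC1 made 29.2% ± 2.76 of the loader's CPM per kb in vehicle and 52.7% ± 2.17 in treated cells. FEN1, the flap nuclease, fell 5.05-fold (115, 114, 123 and 139 to 21.5, 27.1, 26.5 and 22.2 CPM) and LIG1, the ligase that seals the nicks, 2.20-fold (36.6 ± 3.02 to 16.9 ± 3.03 CPM).

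RPA, which also works in repair and recombination, fell less than most members. RPA1 fell by 1.49-fold (71.5, 69.6, 67.8 and 83.9 to 42.4, 51.7, 49.9 and 54.7 CPM), RPA2 by 2.07-fold (66.0 ± 7.61 to 31.1 ± 4.498 CPM) and RPA3 by 2.32-fold (118 ± 15.9 to 50.5 ± 3.73 CPM). At the fork, CLSPN, which encodes the checkpoint mediator claspin on chromosome 1 (35720218 to 35769967), measured 281, 270.3, 270.4 and 289.9 CPM in vehicle. It measured 23.3, 21.0, 19.97 and 10.9 CPM in treated cells, a 14.2-fold fall with the smallest adjusted p of the 44 genes (3.83e-35). TIPIN, which works beside claspin in fork protection, fell 2.02-fold (60.7, 61.6, 56.4 and 52.8 to 30.0, 30.0, 24.8 and 28.003 CPM). The chromatin assembly factor CAF-1 fell in both of its listed subunits. CHAF1A, the large subunit, fell 5.30-fold (112, 104, 124 and 126 to 23.3, 17.9, 27.5 and 20.9 CPM) and CHAF1B, the middle subunit, 3.62-fold (11.98 ± 1.34 to 3.12 ± 0.756 CPM).

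Whether partners fell to different degrees was tested on ratios of counts within each library, which do not depend on how libraries are scaled. For 16 pairs, the mean log2 ratio was compared between groups by a two-sided exact permutation test over the 8 libraries, for which 4 against 4 can give no p below 0.0286, adjusted over the 16 pairs. Of these, 11 pairs reached that p (adjusted p = 0.0416), 10 of them lower and 1 higher in treated cells. Whether a ratio is lower or higher depends on which gene is written first, so this split is not a result. The pairs were chosen with earlier results of these data known, and several set a gene with a large fall against one with a small fall. The number of pairs that passed and their adjusted p depend on that choice, so each pair is read as a description of its own 2 genes. ORC1 fell 8.14-fold relative to ORC2, with log2 ratios of -0.77 ± 0.142 in vehicle and -3.79 ± 0.135 in treated libraries (SD, n = 4, exact permutation test). CLSPN fell 7.45-fold relative to TIPIN, PCNA 4.94-fold and RFC4 4.35-fold relative to RFC1, and PRIM1 4.17-fold relative to PRIM2. ORC6 fell 4.05-fold relative to ORC3, CDC45 3.87-fold relative to GINS4, FEN1 2.30-fold relative to LIG1, MCM10 2.08-fold relative to MCM2 and RPA3 1.57-fold relative to RPA1. POLA2 rose 2.47-fold relative to POLA1, which is a smaller fall of POLA2. In each of these 11 pairs the 2 groups of ratios did not overlap, which with 4 against 4 is the same fact as the smallest p. How often other pairs of genes do so was not computed. Of single tested genes, 29.7% had every treated library below every vehicle library and 29.2% had every treated library above. CDT1 to GMNN (exact permutation p = 0.943), GINS2 to GINS3 (0.571), CHAF1B to CHAF1A (0.200), POLD3 to POLD1 (0.143) and POLE2 to POLE (0.0857) did not pass and had overlapping groups. Of POLE2 to POLE the treated log2 ratios spread by an SD of 1.51. Passing the adjusted threshold needs at least 10 pairs at the smallest p, and without vehicle replicate 1 there were 8, so none passed (smallest adjusted p = 0.0571).

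**Figure D4:**
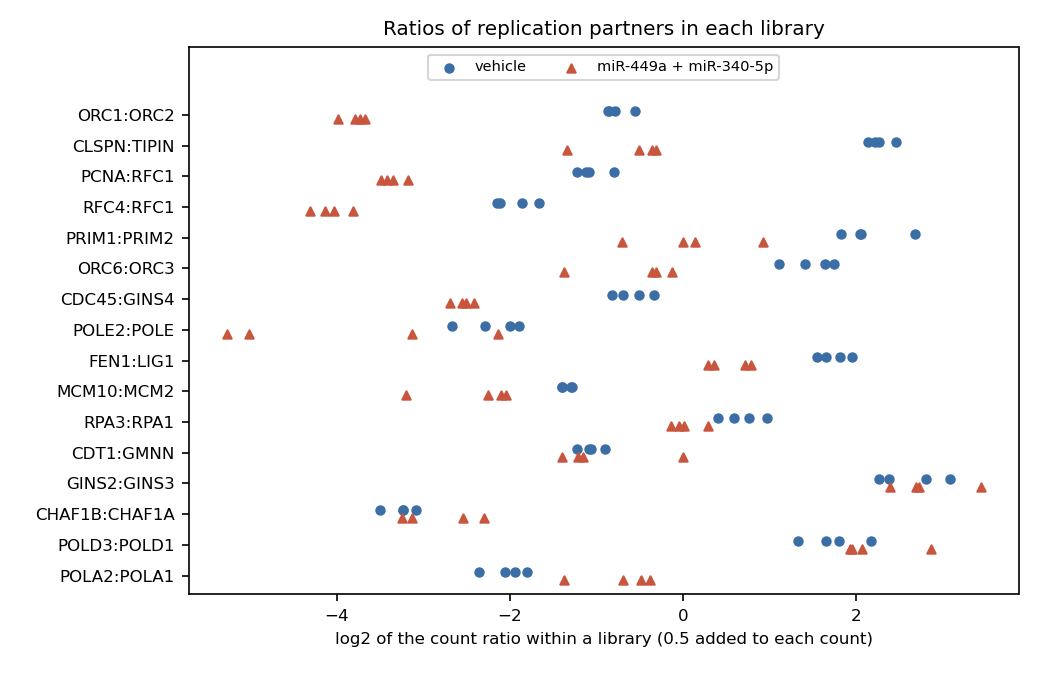
Log2 ratio of the counts of 2 partner genes within each library, for 16 pairs ordered by the difference between groups, with circles for vehicle and triangles for treated libraries. The groups do not overlap in 11 pairs, and POLA2 to POLA1 is the pair among them that is higher in treated libraries. The direction depends on which gene of a pair is written first.

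Levels between genes were compared as CPM per kb of the longest protein-coding transcript. Which transcripts these cells express was not examined, so ranks and complex shares depend on that length. For ORC4 it was 6.71 kb. In vehicle cells the highest were MCM7 (81.9 ± 6.72), GMNN (65.4 ± 5.06), PCNA (59.6 ± 3.77), RPA3 (58.3 ± 7.86) and CLSPN (58.3 ± 1.98), and the lowest were CHAF1B (2.68 ± 0.300), POLD1 (3.21 ± 0.683) and ORC4 (3.69 ± 0.407). PCNA, RPA3 and CLSPN, which follow each other in that order, did not differ beyond their spread. In treated cells the highest were RFC1 (28.1 ± 1.29), RPA3 (25.0 ± 1.85), MCM7 (22.9 ± 2.57), RPA2 (17.8 ± 2.57) and TIPIN (16.2 ± 1.41). RFC1 was 13th and TIPIN 14th of the 44 in vehicle cells, while GMNN moved from 2nd to 19th and CLSPN from 5th to 27th. In the origin recognition complex, ORC1 and ORC6 together made 53.7% ± 2.20 of the CPM per kb in vehicle and 18.4% ± 3.07 in treated cells, with no overlap between 51.7% to 56.7% and 14.1% to 21.3%. ORC1 and ORC6 had the largest falls of the complex, so a smaller joint share follows from picking these subunits.

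The promoters were read next, because most of these genes moved together. RefSeq windows of 300 bases (250 before to 50 after the start, GRCh38.p14) were matched by symbol for 38 of the 44 genes, all but MCM4, MCM5, GINS4, POLD3, RPA2 and RPA3. Each window was searched on both strands for 4 words known as E2F sites, which can overlap each other: the word TTCCCGC, the word TTGGCGC, the word TTCGCGC and the word TTGCCGC, and for TTTGAA, the core of the CHR element of mitotic promoters. An E2F word was present in 27 of the 38 windows (71.1%), against 12.97% of all 35116 promoters in the table and 21.5% of the 8750 tested genes with a window. TTTGAA was present in 0 of 38, against 15.2% of all promoters and 9.44% of tested genes. The 27 genes with an E2F word had a median log2 fold change of -2.41 (from -3.91 to -0.30), and the 11 without had -1.87 (from -4.04 to -0.06). Among all tested genes with a window, the medians were -0.10 with a word and 0.06 without. Large and small falls occurred on both sides: MCM10, GMNN and CDC45 fell more than 8-fold without one, and RFC1, ORC3 and RPA1 carried one and fell less than 1.5-fold. A word is a description of these letters, and binding was not tested. Only these exact words were searched, so near matches are not marked and a window without a word may hold a variant site. The windows of MCM10 and CDC45 hold TTGGCGG, which differs from TTGGCGC only in its last letter. How often near matches occur in other windows was not counted.

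**Figure D5:**
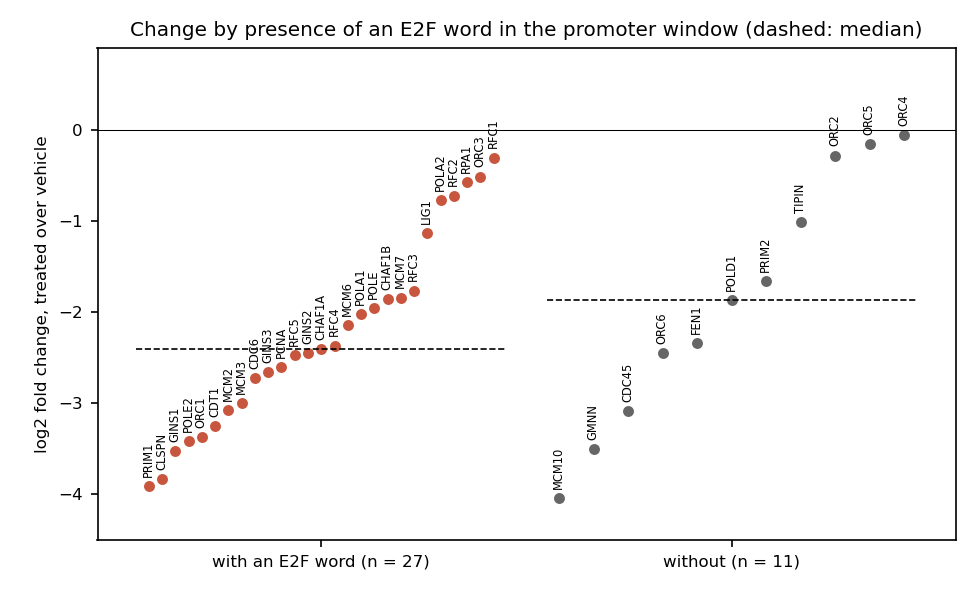
Log2 fold change (treated over vehicle) of the 38 genes with a promoter window, split by the presence of an E2F word, each point 1 gene, ordered by value within its set. Dashed lines are the medians, -2.41 with a word and -1.87 without, and the 2 sets span nearly the same range.

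Full windows are printed for 4 genes that show this, with E2F words in capitals. ORC1 and RFC1 carry the same 10 letters and fell 10.3-fold and 1.23-fold. MCM10, which fell 16.4-fold, and ORC4, which did not pass, carry none of the exact words. The near match of MCM10 is left in small letters. All are written 5′ to 3′ in the direction of the gene.
ORC1, chr1:52404374-52404673, minus strand: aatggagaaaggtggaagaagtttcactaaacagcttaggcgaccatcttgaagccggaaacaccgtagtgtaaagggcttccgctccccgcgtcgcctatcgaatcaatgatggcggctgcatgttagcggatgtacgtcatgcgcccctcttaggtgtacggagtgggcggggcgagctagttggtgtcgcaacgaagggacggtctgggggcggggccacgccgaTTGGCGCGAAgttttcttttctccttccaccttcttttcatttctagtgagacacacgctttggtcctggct
RFC1, chr4:39366313-39366612, minus strand: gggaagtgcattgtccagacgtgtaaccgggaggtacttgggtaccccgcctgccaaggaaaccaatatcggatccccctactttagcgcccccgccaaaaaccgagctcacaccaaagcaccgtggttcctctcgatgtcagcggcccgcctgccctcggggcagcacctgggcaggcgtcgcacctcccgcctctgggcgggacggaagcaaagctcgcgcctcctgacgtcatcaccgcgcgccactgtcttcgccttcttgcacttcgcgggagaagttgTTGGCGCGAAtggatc
MCM10, chr10:13161308-13161607, plus strand: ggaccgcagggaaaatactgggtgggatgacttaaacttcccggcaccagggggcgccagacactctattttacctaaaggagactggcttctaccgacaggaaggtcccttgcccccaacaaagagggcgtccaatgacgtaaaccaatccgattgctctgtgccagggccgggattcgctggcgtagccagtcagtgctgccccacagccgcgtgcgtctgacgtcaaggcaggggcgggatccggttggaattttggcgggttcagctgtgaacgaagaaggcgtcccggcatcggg
ORC4, chr2:148021502-148021801, minus strand: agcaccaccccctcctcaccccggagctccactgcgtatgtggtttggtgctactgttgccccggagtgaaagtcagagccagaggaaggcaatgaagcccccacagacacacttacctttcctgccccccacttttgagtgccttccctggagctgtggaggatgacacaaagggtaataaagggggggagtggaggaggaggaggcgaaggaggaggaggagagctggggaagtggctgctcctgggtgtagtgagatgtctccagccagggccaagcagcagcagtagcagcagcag
The word pair of ORC1 begins 22 bases before the start of transcription, and that of RFC1 lies 35 bases after it. Shorter stretches, from 40 bases before to 20 after the start, show how the words sit in 6 genes that fell at least 6-fold.
CDC6, chr17:40287839-40287898, plus strand: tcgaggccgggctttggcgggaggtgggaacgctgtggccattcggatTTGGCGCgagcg
CDT1, chr16:88803749-88803808, plus strand: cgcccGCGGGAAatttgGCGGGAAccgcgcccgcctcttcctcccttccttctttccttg
MCM2, chr3:127598371-127598430, plus strand: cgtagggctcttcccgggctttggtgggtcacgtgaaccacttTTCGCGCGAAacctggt
PRIM1, chr12:56752304-56752363, minus strand: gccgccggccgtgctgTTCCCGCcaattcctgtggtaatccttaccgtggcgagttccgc
POLE2, chr14:49688195-49688254, minus strand: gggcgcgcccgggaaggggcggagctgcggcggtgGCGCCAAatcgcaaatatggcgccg
CLSPN, chr1:35769959-35770018, minus strand: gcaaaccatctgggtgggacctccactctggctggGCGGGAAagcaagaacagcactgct
CDT1 has 2 copies of the word on the opposite strand, read here as GCGGGAA, and MCM2 has overlapping words on both strands just after its start.

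Genes that work with this machinery mostly fell too. Of 40 other replication genes, 33 fell, 3 rose and 4 missed the threshold, MCM9, KAT7, CHTF8 and ASF1A (median log2 fold change of the 40, -1.30), where 34.0% of all tested genes fell and 33.4% rose. All 8 kinase and firing factors fell, among them TICRR (treslin), which brings CDC45 to origins, from 41.8, 26.2, 33.5 and 28.6 to 2.13, 2.22, 1.72 and 2.25 CPM. ASF1B, a histone chaperone that hands histones to CAF-1, went from 32.9 ± 3.15 down to 3.28 ± 1.39 CPM (10.5-fold, adjusted p = 4.12e-22). EXO1, an exonuclease of mismatch repair and fork processing, fell from 19.0 ± 2.36 to 2.00 ± 1.03 CPM (-3.36, SE 0.27). The largest fall among the 40 was that of the topoisomerase TOP2A, which untangles replicated chromosomes: 1328, 1321, 1378 and 1455 CPM without the microRNAs and 78.1, 60.9, 83.0 and 36.7 CPM in treated cells. Of the 4 topoisomerases in the list 3 fell, and 1 moved the opposite way. TOP1, which relaxes DNA ahead of forks and of transcription, rose from 1000.3, 997, 1023 and 1044 CPM to 2529, 2459, 2640.3 and 2427 CPM (2.47-fold, log2 fold change 1.31, SE 0.05, adjusted p = 4.37e-31). POLD4, the smallest subunit of polymerase delta, rose from 2.93, 3.62, 3.37 and 2.51 to 11.2, 10.2, 11.0 and 7.08 CPM (3.17-fold, adjusted p = 3.21e-07), while POLD1 and POLD3 fell. LRWD1, an ORC-binding protein gene, rose 1.35-fold from 10.6 ± 1.85 to 14.4 ± 2.32 CPM with overlapping groups (adjusted p = 0.0460). The LRWD1 call was lost with no filter (adjusted p = 0.0615), with the filter of 1 CPM (0.0505), with the replicate block (0.0632), with DESeq2 (0.106) and with limma-voom (0.0549). It was also lost without vehicle replicate 1 (0.0880), 3 (0.0904) or 4 (0.129) or treated replicate 1 (0.133) or 4 (0.115).

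Exons of 13 of the 44 genes share bases with another gene of the table, from 7 bases in GINS2 to 587 bases in ORC4 (with ACVR2A and MBD5 on the opposite strand). The shared gene lies on the same strand for POLD3 (AP001372.2) and CHAF1B (MORC3), and for PRIM1 (NACA) and FEN1 (FADS2), which also share bases with a gene on the opposite strand. For the other 9 it lies on the opposite strand. The strand setting of the counting is not given in the sources used here, and whether shared bases changed any of these values was not tested.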

How the data were processed

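RNA of the 8 samples was sequenced after a stranded mRNA preparation, per the labels' protocols. The authors deposited whole-number read counts per gene symbol. Tools listed in the submitters' processing notes, with no role given, are HTSeq 0.5.3p3, DESeq2, TopHat2 2.0.13 and SAMtools 0.1.19.24. The build listed is GRCh38. The annotation is not given in the sources used here.

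Genes were kept by edgeR's filterByExpr (minimum count 10, minimum total 15), which left 12366, and given TMM scaling factors. The two-sided quasi-likelihood test of edgeR 4.0.16 (R 4.3.3; robust glmQLFit, then glmQLFTest) had the group as its sole term. P-values were adjusted by Benjamini-Hochberg over all tested genes, at a threshold of 0.05. The standard error is the log2 fold change over the square root of F. CPM use TMM-scaled library sizes. Pair ratios add 0.5 to each count. Transcript lengths, exons and 3′ UTRs of at least 50 bases come from GENCODE 29, to which 17554 of 22808 symbols matched. MicroRNAs and promoters come from RefSeq tables.

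Replicates differed by 2.21 to 5.89 chi-square units per gene, where sampling noise gives about 1, so none is a plain repeat reading of another. This does not show that they are separate cultures. Each library entered the tests as a unit. The edgeR code was also run on simulated counts, with a spread (0.0745) equal to that fitted to these data. The permutation code was run on simulated normal values. These runs check the code and do not give error rates for these data. Alternatives were DESeq2 1.42.0, limma-voom (limma 3.58.1), other scalings and filters, the replicate block and leaving out each library. The members, lists and pairs were chosen with earlier results of these data known. All 44 members are named, and of the other genes the 4 largest changes with at least 1 CPM and every gene called against the majority. Of the 17 lineage markers in the fixed list, CD14 and CDH5 had no row.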

Additional observations from a re-analysis of the deposited data

Results flagged for a closer look

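In 1 of 102 groups of 4 libraries checked (51 genes, vehicle and treated), a library stood apart from the other 3. For MCM6, treated replicate 3 had 16.5 CPM, where the others had 20.4, 20.3 and 19.96 CPM. By chance about 1 in 20 groups is picked out this way.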

How the results depend on the processing

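Of 704 values of the 44 members under the alternatives, 693 kept their direction and their side of the threshold, and 41 members did so in every alternative run. The others were ORC2, ORC3 and ORC4. The number of members that fell was 41 or 42 in each alternative and none rose in any. The median log2 fold change of the members was -1.94 with library size as the only scaling, where the median of all tested genes shifted to 0.14, and -2.16 to -2.04 when a library was left out. ORC4, which did not pass, turned to 0.079 with library size alone and ranged from -0.12 to 0.031 when a library was left out, turning without vehicle replicate 4. Among pairs that did not pass, CDT1 to GMNN ranged from -0.19 (without treated replicate 1) to 0.28 and GINS2 to GINS3 from -0.033 (without treated replicate 4) to 0.33. Leaving out a library gave 0 to 11 pairs past the threshold. The replicate block (a sign-flip test on same-numbered libraries) gave 0 pairs, since 4 pairs allow no p below 0.125. In edgeR the replicate block gave 42 members lower and a median of -2.10. Same-numbered libraries correlated by 0.01 to 0.06 in their deviations from the group means. The best match had the same number for vehicle libraries 1, 2 and 3 and for treated libraries 1, 2, 3 and 4. For vehicle library 4 it was treated library 2. The main test did not use the numbers as pairs, and whether they mark a shared batch was not tested. Depth limits genes under a few CPM, such as POLE2, PRIM2 and GINS3 in treated cells.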
